A study of Mus musculus with 8 samples.

Results

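The genes described here encode the cell-surface receptors for interferons and the Janus kinases that sit on them: Ifnar1, Ifnar2, Ifngr1, Ifngr2, Ifnlr1, Il10rb, Jak1, Jak2 and Tyk2. They were taken by name, and all 9 were measured, by 11 of the 55681 probes that are not controls. After dim probes were left out and each gene was represented by 1 probe, they were 9 of 25421 features tested.

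Interferons are cytokines of antiviral defence that act through paired receptor chains. Type I interferons bind IFNAR1 and IFNAR2, interferon gamma (type II) binds IFNGR1 and IFNGR2, and the interferon lambdas (type III) bind IFNLR1 together with IL10RB, a chain shared with the receptors for interleukin 10 and interleukin 22. The chains have no enzyme activity of their own. TYK2 and JAK1 serve the type I and type III receptors, JAK1 and JAK2 the type II receptor, and the kinases phosphorylate STAT factors that carry the signal to the nucleus. In the gut, the type III receptor is known as the main interferon receptor of epithelial cells. The study targeted Irf2, whose product acts on interferon response elements in DNA and restrains part of the interferon response.

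The samples were intestinal stem cells of mice sorted for high signal of an Lgr5 reporter, each on 1 Agilent 1-colour array. The 4 samples labelled Irf2_AhcKO came from Irf2 fl/fl mice with AhCre and the Lgr5-EGFP-Ires-CreERT2 allele. The 4 control samples came from Irf2 fl/fl mice with Lgr5-EGFP-Ires-CreERT2 and, by their genotype labels, no AhCre. Both groups thus carried the floxed Irf2 gene and the Lgr5 allele with its tamoxifen-activated recombinase, and both received β-naphthoflavone on 5 days, with collection 1 month later. Ah-Cre is a recombinase under a xenobiotic-inducible promoter that β-naphthoflavone switches on, and it is not restricted to stem cells. The labels state no ages. The arrays lay on 2 slides scanned separately, slide 1 with replicates 1 and 2 of both groups and slide 2 with replicates 3 and 4. Ah-Cre also appears in the scanner data names of control replicates 3 and 4, against their genotype labels, so whether they carried it is unsettled and each slide is also given separately. The design speaks both of 4 independent mice and of 2 biological replicates, and the spread behind the p-values may thus be partly technical.

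Between 61.4% and 69.8% of spots were well above background per array and none was saturated. The number of arrays limits the precision. All 13 Lgr5 stem cell markers with a probe, Lgr5 among them, and all 10 epithelial markers were well above background on all 8 arrays. Of 6 pan-leukocyte markers, Ptprc and Rac2 were so on all 8 arrays and Coro1a, Laptm5 and Cd53 on none. Of 12 markers of T and intraepithelial lymphocytes with a probe, 8 were so on all 8 arrays, as were 8 of 11 myeloid markers. Signal from other cells is thus not excluded. Control replicate 4 stood apart in 1 enterocyte probe, Sis, whose log2 level was -2.62 to -1.57 in Irf2_AhcKO, against 10.42 on that array and -1.74 to -0.79 on the other controls. The Irf2 probe gave log2 levels of 1.12, 1.1, 0.70 and 0.73 in Irf2_AhcKO and 0.99, 0.55, 0.37 and 0.64 in controls. Its level was thus not lower in the arrays labelled Irf2_AhcKO (log2 difference 0.27, SE 0.12, limma adjusted p = 0.429). Whether it lies in the deleted part is not known here, and directions are between arrays as labelled.

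Here a level is the log2 signal minus the log2 of the array's 75th percentile, so 0 means the brightness of that percentile. A probe's level depends on its own affinity, so levels are compared between arrays and not between genes. In bulk samples, fewer cells that express a gene and less RNA per cell cannot be told apart.

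All 9 genes gave signal well above background in these sorted samples. Each of the 11 probes did so on all 8 arrays, for both chains of the type I, type II and type III receptors and for the 3 kinases. The same mark was carried by 61.4% to 69.8% of all spots per array. It does not show which cells of a sorted sample the signal came from. As multiples of the array's 75th percentile, the Ifngr2 probe gave 15.5 to 22.2 over the 8 arrays, Ifngr1 gave 4.06 to 5.54, and Jak1 gave 2.34 to 3.29. Jak2 gave 1.15 to 1.75, Ifnar2 gave 0.812 to 1.34 and the Ifnar1 probe that represents the gene gave 0.245 to 0.905. Ifnlr1 gave 0.263 to 0.621, Tyk2 gave 0.174 to 0.400 and Il10rb gave 0.105 to 0.276.

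None of the 9 genes differed between Irf2_AhcKO and control at a Benjamini-Hochberg adjusted p below 0.05 in limma with the slide as a term. Over all features, 25 of 25421 passed (0.0983%), 14 higher and 11 lower in Irf2_AhcKO. At an unadjusted p below 0.05 there were 2 of the 9 genes, Ifnar1 and Jak2, where 11.7% of all features had such a p. The differences were positive for 5 genes and negative for 4. The median absolute log2 difference was 0.11 over the 9 genes, against 0.13 over all features. No gene had groups that did not overlap, while 3.85% of all features did.

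The precision of these comparisons differed between genes. For 6 of the 9 genes (Ifnar2, Ifngr1, Ifngr2, Il10rb, Jak1 and Jak2) the 95% interval of the ratio of Irf2_AhcKO to control lay within 1.5-fold in either direction, a limit chosen after the values were seen. The outermost bounds among these 6 were 0.83 and 1.44. All intervals rest on the same spread as the p-values, which may be partly technical, so they may be too narrow. For Ifnar1, Ifnlr1 and Tyk2 the intervals were wider and reached past that limit.

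**Figure D1:**
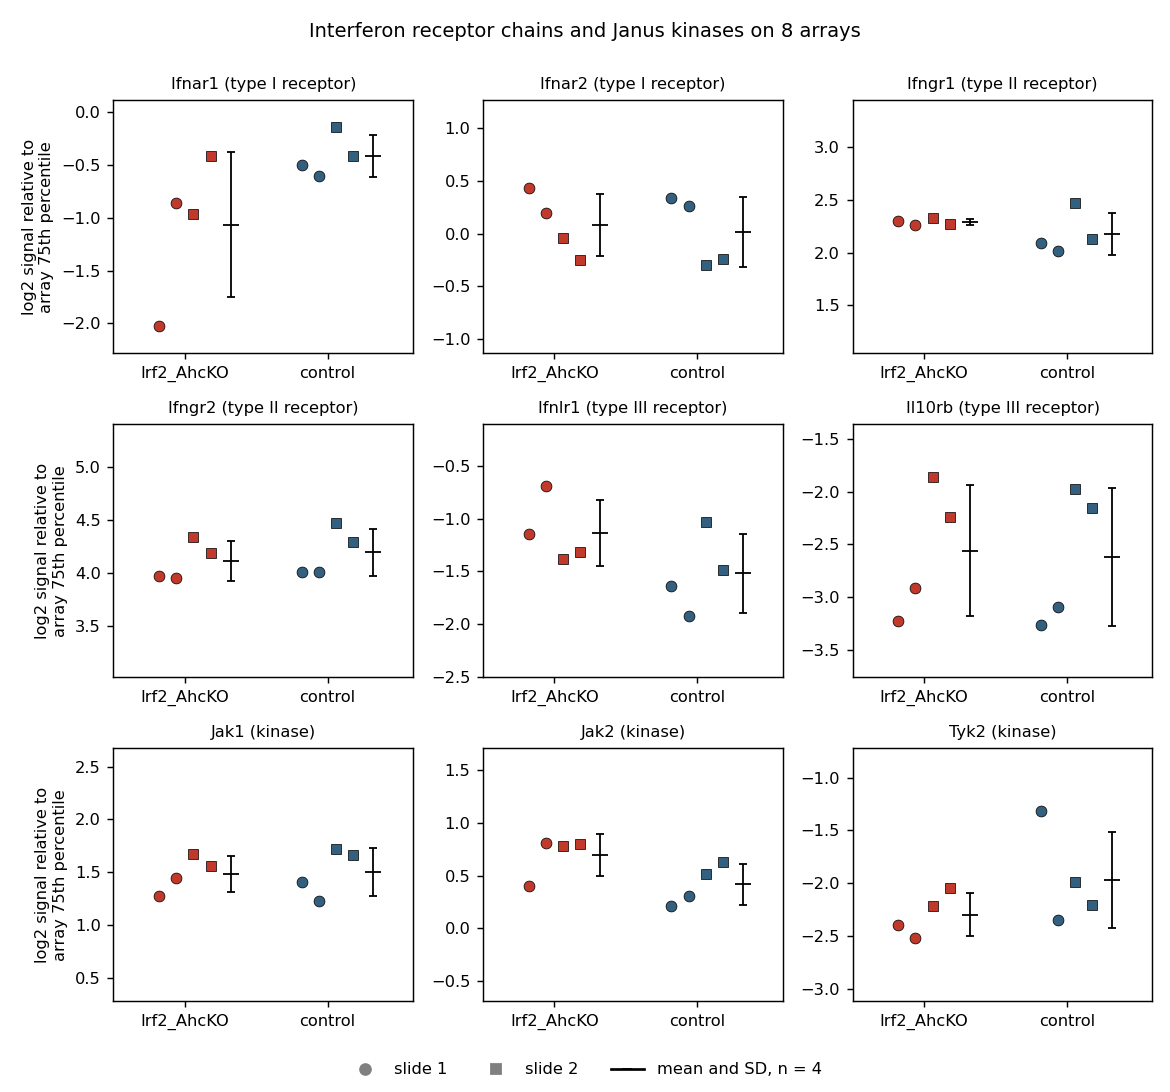
Log2 signal of each of the 9 genes on the 8 arrays, relative to the array's 75th percentile, with 1 panel per gene and the same span on each vertical axis. Points are arrays (circles slide 1, squares slide 2) and the bar beside each group is its mean and SD (n = 4); the groups overlap in every panel, and Il10rb separates by slide in both groups.

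The type I receptor chain Ifnar1 had the most negative difference of the 9 genes, and that value rested on 1 of its 3 probes and moved by more than 1.5 times with 1 array. The gene's brightest probe, A_55_P2438722, gave log2 levels of -2.03, -0.86, -0.96 and -0.41 in Irf2_AhcKO replicates 1 to 4 and -0.50, -0.60, -0.14 and -0.41 in controls. Irf2_AhcKO replicate 1 was the lowest array, and replicate 4 of both groups stood at the same rounded level. Irf2_AhcKO differed from control by -0.65 on the log2 scale (SE 0.27), a ratio of 0.635 with a 95% interval of 0.408 to 0.990 (unadjusted p = 0.0463, limma adjusted p = 0.423). It was -0.90 on slide 1 and -0.41 on slide 2, and -0.37 without Irf2_AhcKO replicate 1. Within each slide both Irf2_AhcKO arrays were below both controls before rounding, as in 7.09% of all features.

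The other probes of Ifnar1 gave smaller differences. Probe A_55_P2036337 gave -2.79, -1.86, -2.94 and -2.26 in Irf2_AhcKO and -2.13, -2.35, -1.92 and -2.32 in controls. The highest array of all was thus an Irf2_AhcKO array, and so were the lowest, at -2.94 and -2.79. Its log2 difference was -0.28 (SE 0.25, adjusted p in limma over all probes 0.684), and none of the 11 probes of the 9 genes was called in that fit, where 0.0413% of all probes were. Probe A_55_P2454784 gave -1.64, -1.77, -1.13 and -1.36 in Irf2_AhcKO and -1.77, -1.41, -0.88 and -1.38 in controls. Here the groups lay over each other, and the difference was -0.11 on the log2 scale (SE 0.14, adjusted p = 0.776). All 3 probes carry the same RefSeq transcript name, and their places in the transcript are not known here.

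**Figure D2:**
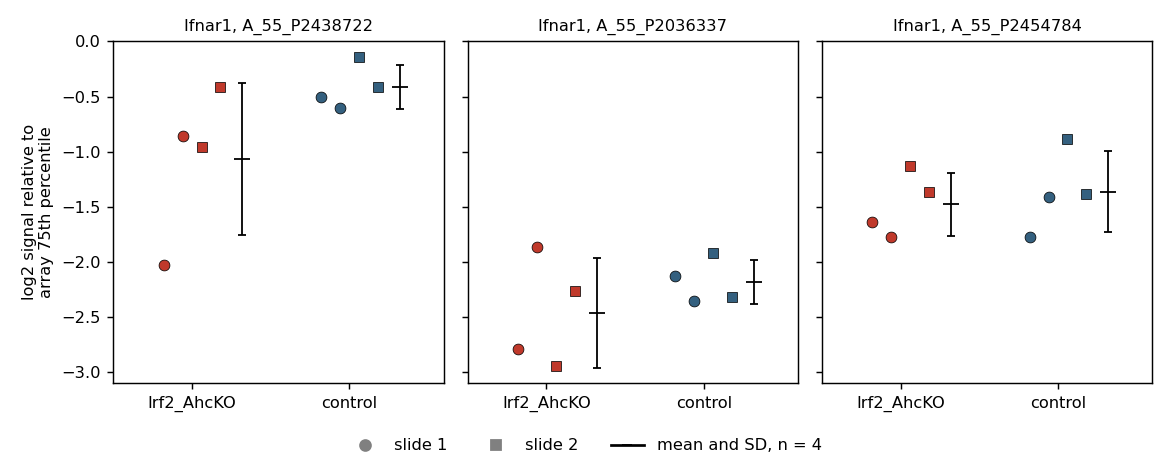
Log2 signal of the 3 Ifnar1 probes on the 8 arrays, relative to the array's 75th percentile, with points for arrays (circles slide 1, squares slide 2) and mean and SD per group (n = 4). Irf2_AhcKO replicate 1 lies at -2.03 on the first probe and at -2.79, below every control, on the second. On the third probe it lies within the range of the other arrays.

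Ifnar2, the chain that binds type I interferons most tightly, was nearly level between the groups. It stood at 0.43, 0.20, -0.04 and -0.25 in Irf2_AhcKO and at 0.34, 0.26, -0.30 and -0.24 in controls. The arrays of slide 1 were the high ones in both groups. Between the groups the log2 levels differed by 0.07 (SE 0.09), a ratio of 1.05 with a 95% interval of 0.907 to 1.21 (limma adjusted p = 0.766).

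Promoter sequence is shown for these 2 type I receptor chains because theirs were the only promoters among those looked up that held either motif searched. Of the 9 genes, 8 had a promoter in the RefSeq table of build GRCm38.p6. Both strands of 250 bases before to 50 bases after the start were searched for the interferon regulatory factor core (GAAA, any 2 bases, GAAA) and the STAT core TTCNNNGAA, which reads the same on both strands. The first was in 0 of the 8 promoters, where 3.44% of the 32851 promoters in the table held it, and the second in 2 of 8, where 8.30% held it. The match in Ifnar1 begins 5 bases before the start and runs across it, and the match in Ifnar2 begins 214 bases before the start. A match is a description of letters and no evidence of binding, and the absence of these letters from these windows says nothing about binding elsewhere. The sequences run from 250 bases before to 20 bases after the start, on the plus strand, with the STAT core match in capitals.
Ifnar1, GRCm38.p6 chr16:91484965-91485234: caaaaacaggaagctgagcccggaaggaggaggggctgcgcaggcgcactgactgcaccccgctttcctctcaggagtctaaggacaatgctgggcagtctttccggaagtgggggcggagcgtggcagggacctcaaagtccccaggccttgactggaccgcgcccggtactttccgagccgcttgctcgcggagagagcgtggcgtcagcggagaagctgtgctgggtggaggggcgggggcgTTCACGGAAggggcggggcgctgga
Ifnar2, GRCm38.p6 chr16:91372533-91372802: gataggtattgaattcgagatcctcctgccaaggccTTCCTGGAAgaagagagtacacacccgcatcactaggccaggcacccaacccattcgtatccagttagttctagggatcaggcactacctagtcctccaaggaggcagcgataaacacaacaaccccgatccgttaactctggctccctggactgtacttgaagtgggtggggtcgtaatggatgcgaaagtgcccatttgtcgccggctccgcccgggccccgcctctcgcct

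Neither chain of the interferon gamma receptor was called between the groups. Both intervals lay within the 1.5-fold limit, which was chosen after the values were seen. Ifngr1, the ligand-binding chain, stood at 2.30, 2.26, 2.33 and 2.27 in Irf2_AhcKO and at 2.09, 2.02, 2.47 and 2.13 in controls. The 4 Irf2_AhcKO arrays lay within the range of the controls and much closer together (2.29 ± 0.03 against 2.18 ± 0.20, SD, n = 4 each). Their means differed by 0.11 on the log2 scale (SE 0.10), a ratio of 1.08 with a 95% interval of 0.916 to 1.27 (limma adjusted p = 0.666). Ifngr2, the signalling chain that brings JAK2, stood at 3.97, 3.95, 4.34 and 4.19 in Irf2_AhcKO and at 4.01, 4.01, 4.47 and 4.29 in controls. The arrays of slide 2 were the high ones in both groups. Irf2_AhcKO minus control was -0.08 on the log2 scale (SE 0.08), a ratio of 0.944 with a 95% interval of 0.830 to 1.07 (limma adjusted p = 0.673).

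The type III receptor chain Ifnlr1, the chain that confers binding of interferon lambda, was higher in Irf2_AhcKO on slide 1 and not on slide 2. On slide 1 it stood at -1.15 and -0.69 in Irf2_AhcKO and at -1.64 and -1.92 in controls. On slide 2 it stood at -1.38 and -1.32 in Irf2_AhcKO and at -1.03 and -1.49 in controls. The pairs of arrays did not overlap on slide 1 and overlapped on slide 2.

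Over both slides the log2 difference of Ifnlr1 was 0.39 (SE 0.23), a ratio of 1.31 with a 95% interval of 0.897 to 1.91 (limma adjusted p = 0.525). It was 0.86 on slide 1 and -0.09 on slide 2. Without Irf2_AhcKO replicate 2 the difference over both slides was 0.20, and without control replicate 2 it was 0.24. The difference between the slides was itself tested as an interaction and came to -0.95 for slide 2 minus slide 1 (unadjusted p = 0.0242, limma adjusted p = 0.999). None of the 25421 features passed that interaction test after adjustment, and 4.30% had an unadjusted p below 0.05. Among the 9 genes Ifnlr1 alone did.

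Il10rb, the chain that IFNLR1 pairs with, differed between slides and not detectably between the labelled groups. It stood at -3.23, -2.91, -1.86 and -2.24 in Irf2_AhcKO and at -3.26, -3.09, -1.97 and -2.15 in controls. All 4 arrays of slide 2 were above all 4 arrays of slide 1, while the groups overlapped within each slide. Between the groups the difference was 0.05 on the log2 scale (SE 0.12), a ratio of 1.04 with a 95% interval of 0.852 to 1.27 (limma adjusted p = 0.870).

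Partners of Il10rb in other receptors were looked at beside it. Il22ra1, which joins IL10RB to form the interleukin 22 receptor of epithelial cells, was well above background on all 8 arrays, at -0.84, -1.23, -0.51 and -0.66 in Irf2_AhcKO and -1.34, -1.27, -0.75 and -0.76 in controls. On both slides the Irf2_AhcKO arrays were above the controls, as in 5.75% of all features. The log2 difference of 0.22 (SE 0.10) was not called (limma adjusted p = 0.457). The probe of Il10ra, the partner in the interleukin 10 receptor, was well above background on no array, and neither was that of Il20ra.

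Jak2, the kinase on the interferon gamma receptor and on receptors for several hormones and growth factors, had the lowest unadjusted p of the 9 genes. It stood at 0.40, 0.81, 0.78 and 0.80 in Irf2_AhcKO and at 0.21, 0.31, 0.52 and 0.63 in controls. Within each slide both Irf2_AhcKO arrays were above both controls, and over all arrays Irf2_AhcKO replicate 1 lay within the control range. The log2 difference was 0.28 (SE 0.11), a ratio of 1.21 with a 95% interval of 1.02 to 1.44 (unadjusted p = 0.0339, limma adjusted p = 0.392). It was 0.34 on slide 1 and 0.21 on slide 2. Such a separation within both slides, in the higher direction, was found in 5.75% of all features.

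Jak1, the kinase shared by all 3 types of interferon receptor, did not separate by label. It stood at 1.27, 1.44, 1.67 and 1.56 in Irf2_AhcKO and at 1.41, 1.23, 1.72 and 1.66 in controls. The 2 groups spanned almost the same range. Their means differed by -0.02 on the log2 scale (SE 0.08), a ratio of 0.985 with a 95% interval of 0.858 to 1.13 (limma adjusted p = 0.930).

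Tyk2, the kinase bound to IFNAR1 and IL10RB, stood at -2.40, -2.52, -2.22 and -2.05 in Irf2_AhcKO and at -1.32, -2.35, -1.99 and -2.21 in controls. Control replicate 1 was the one high array. Irf2_AhcKO minus control was -0.33 (SE 0.24), a ratio of 0.797 with a 95% interval of 0.541 to 1.17 (limma adjusted p = 0.588). It was -0.62 on slide 1, which holds that array, and -0.03 on slide 2, and -0.06 without control replicate 1.

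Jak3, the Janus kinase of lymphocytes that pairs with the common gamma chain, differed by -0.01 on the log2 scale on its brighter probe (SE 0.11, adjusted p = 0.978). Its other probe gave 0.44 (SE 0.37, adjusted p = 0.665 over all probes). The probe of Il2rg, the common gamma chain itself, was well above background on 1 of 8 arrays.

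**Figure D3:**
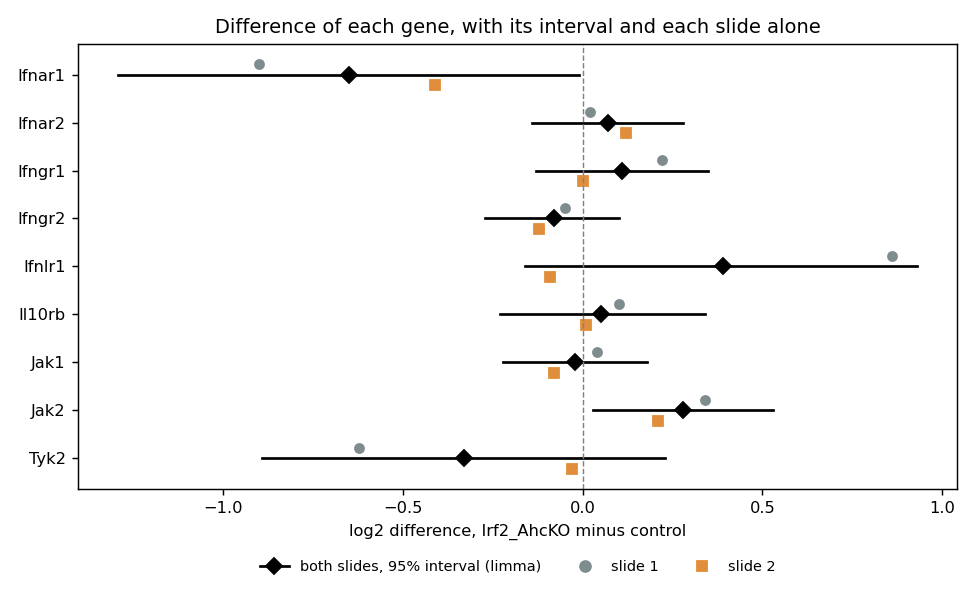
Log2 difference (Irf2_AhcKO minus control) of each of the 9 genes, with diamonds and lines for the fit over both slides and its 95% interval, circles for slide 1 and squares for slide 2. The intervals of Ifnar1 and Jak2 end near 0, and Ifnlr1 and Tyk2 have slide values that lie far apart.

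Several of these genes differed between the slides. At the slide comparison, 4 of the 9 genes differed at an adjusted p below 0.05, where 35.5% of all features did; 3 were higher on slide 2 (12% of all features) and 1 was lower (23.5%). Il10rb was higher on slide 2 by 1.07 on the log2 scale (limma adjusted p = 0.00103), Ifngr2 by 0.34 (adjusted p = 0.0152) and Jak1 by 0.32 (adjusted p = 0.0253). Ifnar2 had a slide 2 minus slide 1 difference of -0.52 (adjusted p = 0.00500). The other chains of the same receptors had slide differences that were not called, 0.51 for Ifnar1 (adjusted p = 0.183), 0.13 for Ifngr1 (adjusted p = 0.337) and 0.05 for Ifnlr1 (adjusted p = 0.892). Slide and scan coincide, and the labels do not say which mice were on which slide. The parts of slide, scan and mice cannot be told apart.

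Most interferon genes themselves were at background in these cells. Of 14 listed interferons, 11 had a probe and 3 passed the filter on dim probes. The probes of Ifng, Ifnb1, Ifne, Ifna2 and Ifna4 were well above background on no array. The measured ones were Ifnab, Ifnl3 and Ifna1, at log2 differences of -0.25, -0.01 and 0.01, and none was called. Genes of the interferon alpha family are near-copies, so their probes may read each other.

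Downstream of the kinases, neither Stat2, Stat3 nor Irf9 was called. Stat3, the STAT of interleukin 22 and interleukin 6 signals, stood at 3.24, 3.42, 3.27 and 3.21 in Irf2_AhcKO and at 2.68, 2.76, 2.79 and 2.94 in controls. The groups did not overlap, as in 3.85% of all features. Stat3 was higher in Irf2_AhcKO by a log2 value of 0.49, with an SE of 0.09 and an adjusted p of 0.146 in limma. Stat2 and Irf9, which act together in the type I and type III response, had log2 differences of 0.05 and 0.10.

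Among 21 measured inhibitors and modulators of receptor and kinase signalling, 1 fell and none rose at an adjusted p below 0.05. Of all features, 0.0983% were called. The one that fell was Nmi, which binds STAT proteins. It stood at 0.41, 0.43, 0.07 and 0.28 in Irf2_AhcKO and at 1.57, 1.54, 1.12 and 1.34 in controls. The groups were well apart and differed by -1.09 on the log2 scale (SE 0.09, adjusted p = 0.0135). With the replicate number as a block the same difference had an adjusted p of 0.0709, and it was called in 10 of 20 alternative analyses, with log2 differences between -1.15 and -0.97 in all of them. This gene was already known to be lower from earlier results of these data.

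Among the inhibitors on that list, Socs1 and Socs3, which act on Janus kinases, were not called. Socs1 stood at -2.59, -2.0, -2.32 and -3.07 in Irf2_AhcKO and at -3.81, -2.70, -2.81 and -2.78 in controls (log2 difference 0.53, SE 0.33, limma adjusted p = 0.536). The groups overlapped. Socs3 differed by 0.34 on the log2 scale (SE 0.20, adjusted p = 0.526). Pias3, an inhibitor of STAT3, differed by 0.80 (SE 0.41, adjusted p = 0.480) on a probe well above background on 1 of 4 control arrays. Usp18, which blocks the type I receptor at IFNAR2, was well above background on no array.

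Of 34 other receptors that signal through these kinases, 25 were measured and none was called, with log2 differences between -0.31 and 0.30 and a median of 0.03. By unadjusted p the first were Prlr, the prolactin receptor (log2 difference -0.24), Il5ra (0.27), Il6st, the shared chain of the interleukin 6 family (-0.31), and Il11ra1 (0.23). Of 15 measured genes of receptor turnover and trafficking, none was called. Prkd2, a kinase that in human cells marks IFNAR1 for removal, differed by -0.58 on the log2 scale (SE 0.18, adjusted p = 0.329). Its levels were -1.76, -1.47, -1.49 and -2.09 in Irf2_AhcKO and -1.36, -0.98, -0.87 and -1.26 in controls. These do not overlap, as in 3.85% of all features.

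**Figure D4:**
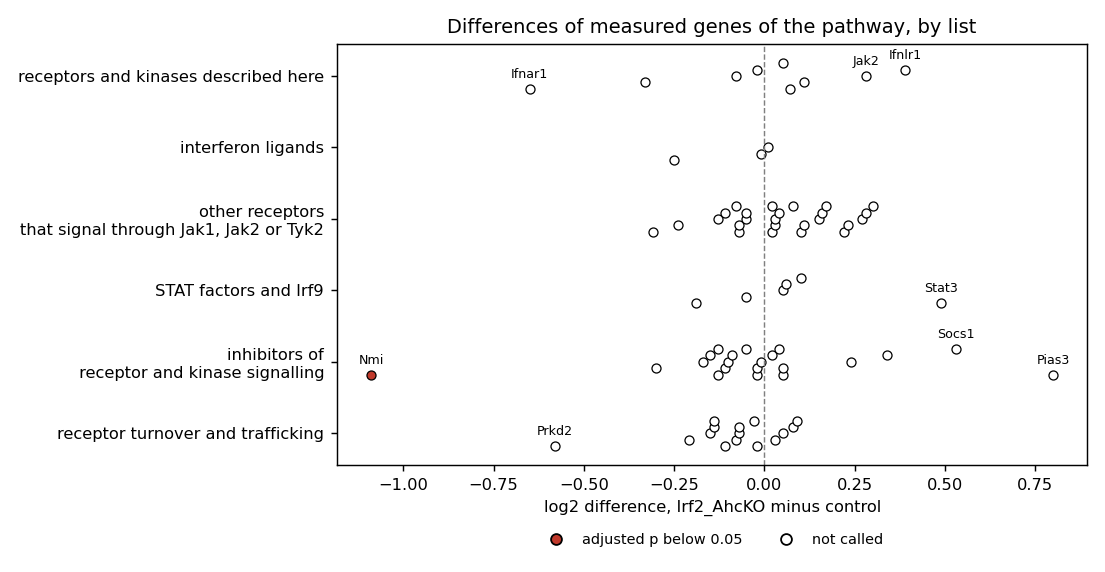
Log2 differences (Irf2_AhcKO minus control) of the measured genes of the pathway, 1 point per gene and 1 row per list, filled where the limma adjusted p is below 0.05. Nmi at -1.09 is the one filled point, and the 9 receptor and kinase genes in the top row lie between -0.65 and 0.39.

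Ifnar2, Il10rb, Ifnar1 and Ifngr2 are listed next to each other on chromosome 16 in that order, between Olig1 and Tmem50b, in the protein-coding genes of the RefSeq table. Their log2 differences were 0.07, 0.05, -0.65 and -0.08 in that order. Of 14 measured genes in and around this cluster, none was called, with a median of -0.04.

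Markers of other cells bear on receptors that many cell types share. The summed level of 9 measured markers of T and intraepithelial lymphocytes was 8.89 to 9.92 in Irf2_AhcKO and 6.17 to 8.91 in controls. Nkg7 was the brightest of the 9 and so weighs most in that sum. Of the 9 differences, 6 were positive and 3 negative. Cd3g and Cd2 were well above background on no array. The 2 measured pan-leukocyte markers summed to 0.439 to 0.662 in Irf2_AhcKO and 0.394 to 0.581 in controls. None of the lymphocyte, myeloid, B cell, mesenchymal, endothelial or epithelial marker lists had a called member. Their largest log2 differences were 1.33 for Cd79b, 1.03 for Cd74 and -0.95 for Col3a1. The Cd79b probe was well above background on 2 of 4 control arrays, and that of Col3a1 on 2 of 4 arrays in each group. Col3a1 stood at -0.87 in control replicate 1, against -4.72 to -3.51 in the other controls. As only 0.0983% of all features were called, a marker that was not called need not be level between the groups. Among epithelial lineages, all 8 enterocyte markers had negative differences (median -0.83). The largest of these, -3.85 for Sis, includes the control array that stood apart. All 7 goblet markers were negative too (median -0.16). Paneth and enteroendocrine markers were mixed, with 3 of 4 and 4 of 8 positive. The 7 tuft cell markers summed to 6.28 to 14.3 in Irf2_AhcKO and 5.28 to 7.53 in controls, with 6 positive differences. None of these was called either. The part of these cells in the receptor levels was not tested.

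The genes whose pattern over the 8 arrays was most like each receptor or kinase, once slide means were removed, were found by Pearson correlation among 15130 other features with a symbol. Those ranked first were Stimate for Ifnar1, Tubgcp3 for Ifnar2, Hspa2 for Ifngr1, Abcc10 for Ifngr2, Rgs10 for Ifnlr1, Serinc5 for Il10rb, Zfhx3 for Jak1, Apex2 for Jak2 and Gpr137 for Tyk2, at r of 0.97 to 0.99. With so few arrays and so many candidates, values this high describe these arrays only. Among the 9 genes the closest pair was Ifngr1 and Ifnlr1 (r = 0.81 over 8 arrays), while Ifnar1 and Ifnar2 were not each other's closest member.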

How the data were processed

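RNA of 4 Irf2_AhcKO and 4 control samples was amplified from 20 ng with a whole-transcriptome kit and labelled with Cy3, per the labels' protocols. The deposited scanner files give a background-subtracted and detrended intensity per spot, made with Agilent Feature Extraction 11.5.1.1 (file headers and submitters' processing notes), per the file headers. The authors' deposited series table is that intensity times 1 constant per array (6.41 to 6.90).

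Intensity was scaled to the 75th percentile of each array's non-control spots and converted to log2. Outlier spots were left out unless all spots of a probe were outliers. Probes were named by RefSeq accession (28331 of 55681 matched, assembly GRCm38.p6, array grid mm9), retained if well above background on 4 or more of 8 arrays, and each gene took its brightest kept probe. The fit was limma 3.58.1 (R 4.3.3) with group and slide as terms, two-sided, adjusted by Benjamini-Hochberg over 25421 features. The script was tested on simulated data. No per-gene p was adjusted over a list alone.

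Arrays with the same number in the 2 groups shared deviations from their group's mean. Their r over genes was 0.46, 0.49, 0.52 and 0.53 for numbers 1 to 4. Such arrays also shared a slide, so these r include the difference between slides. With slide means also removed r was 0.05 on slide 1 and 0.21 on slide 2. The criterion for pairing, every r above 0.1, was thus not met on slide 1. With 2 arrays per group and slide, both r of a slide are equal by construction, so pairing by number was not established. Within a slide and group arrays correlated at 0.986 to 0.988 and none were identical. The genes, lists and tests were chosen with earlier results of these data known. The text names all 9 genes with every probe, Irf2, up to 4 genes per list by unadjusted p and a fixed set of partners. Sis, Ptprc and Rac2, and genes at background such as Cd3g, Cd2 and Coro1a, were named after their values were seen. The normexp alternative used median signals, since the files hold no mean signal. 1 gene of the wider pathway is not reported here.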

Additional observations from a re-analysis of the deposited data

Results flagged for a closer look

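Among 22 sets of 4 arrays (11 probes in each group), 1 held an array far from the others by Dixon's criterion. Jak2 stood at 0.40 on Irf2_AhcKO replicate 1, while the other Irf2_AhcKO arrays lay between 0.78 and 0.81. Chance gives such a gap in about 1 of 20 sets. Without that array the log2 difference of Jak2 was 0.34 (limma adjusted p = 0.471).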

How the results depend on the processing

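Over 20 alternative analyses (normalization, background, filter, probe choice, slide handling, replicate block, the authors' table, each array left out) none of the 9 genes was called. The number of features called went to 129 with normexp, 46 when probes had to be well above background on all 8 arrays, 7 with no filter, 44 with the slide as a random block, 0 with the replicate block, 0 on slide 1 and 0 on slide 2 alone, and 0 to 25 with 1 array left out. With the replicate block the count among the inhibitors and modulators was 0. In that fit the 9 genes kept their differences by construction, with limma adjusted p for Ifnar1 of 0.397 and for Jak2 of 0.358. The sign turned for Il10rb with normexp (-0.04), for Jak1 on slide 1 (0.04) and in the authors' table (0.01), for Ifngr1 on slide 2 (0.00) and for Ifnlr1 on slide 2 (-0.09). With 1 array left out, Il10rb ranged from -0.02 to 0.14 and Jak1 from -0.07 to 0.01. Ifnar1 was -0.90 to -0.35 and Jak2 0.18 to 0.34 over all 20, with unadjusted p below 0.05 in 8 and 10. Ifnar1 was -0.35 as the mean of its 3 probes and -0.40 with normexp. Dim probes such as Il10rb and Tyk2 are limited by signal over background.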

Other observations

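Of the other receptor chains on the list, the probes of Il7r, Il23r, Il27ra and Osmr were well above background on no array, and Il6ra on 1 of 8. The signal-transducing chain Il6st was well above background on all 8 arrays, at 1.37, 1.05, 1.82 and 1.61 in Irf2_AhcKO and 1.64, 1.69, 2.09 and 1.65 in controls (log2 difference -0.31, SE 0.14, limma adjusted p = 0.447). Irf2_AhcKO arrays were the lower ones on slide 1, and the groups overlapped on slide 2. Stat3 gave like differences on both of its probes, 0.49 and 0.51, and the groups overlapped on the dimmer probe. It was called in none of 20 alternative analyses, with its lowest limma adjusted p at 0.0501.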
